A study of Danio rerio with 4 samples.

Results

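The genes described here are 9 regulators and targets of the transcription factor p53, namely mdm2, mdm4, ccng1, cdkn1a, gadd45aa, phlda3, sesn1, bbc3 and baxa. They were given as a list of symbols, matched on the symbol column of the Ribo-seq table and joined to the RNA-seq table by gene ID. All 9 were found, among 25196 gene IDs of the Ribo-seq table and 26662 of the RNA-seq table. Heads were taken at 5 dpf from noc4l mutants and from their siblings, and each genotype gave 1 library of RNA-seq and 1 of Ribo-seq, the sequencing of the RNA fragments that ribosomes protect (footprints). The zebrafish line was made with CRISPR/Cas9 and a guide against the fourth exon of noc4l, which left a short deletion and a premature stop, and noc4l encodes a nucleolar factor of small ribosomal subunit assembly. The mutants carry the lesion in every cell and not in the head alone, and the study considers maternal noc4l product a likely support of their early development. GEO's labels give the sibling genotype as WT, and neither the share of heterozygotes among the siblings nor the number of heads per library is given in the sources used here. No drug or morpholino is named for these 4 libraries.

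p53 is a transcription factor that stays low in unstressed cells because the ubiquitin ligase Mdm2 marks it for degradation. When ribosome assembly fails, free ribosomal proteins of the 5S RNP can bind Mdm2, p53 is then stabilised, and it switches on genes of cell cycle arrest, of apoptosis and of repair. Mdm2 is itself a p53 target and closes a negative feedback loop, and its relative Mdm4 binds the activation domain of p53 and lowers its activity. In zebrafish, loss of many ribosome biogenesis factors is known to raise p53 activity in the embryo.

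The RNA of 8 of these 9 genes was higher in the mutant library, by very different amounts, where 51.0% of all measured genes had a ratio above 1. The log2 ratios ran from -0.33 (mdm4) to 2.13 (ccng1) in RNA and from -1.52 (mdm4) to 2.43 (ccng1) in footprints. The other genes ran from 0.45 (sesn1) to 2.03 (mdm2) in RNA and from 0.22 (baxa) to 1.60 (mdm2) in footprints. At a ratio of mutant to sibling of 2 or more, 4 of the 9 were higher in RNA (ccng1, mdm2, phlda3 and gadd45aa) and 0 were lower, in a table where 3.14% of all 17243 measured genes were higher and 6.16% were lower. In footprints 2 were higher (ccng1 and mdm2) and 1 was lower (mdm4), against 1.90% higher and 3.61% lower among 15729 measured genes. In translation efficiency, here footprint CPM (counts relative to the scaled library total) over RNA CPM, 0 were higher and 2 were lower (mdm4 and phlda3), against 3.55% higher and 3.18% lower among 14455 genes. The median log2 ratio of the 9 genes was 0.81 in RNA, 0.67 in footprints and -0.37 in translation efficiency, beside 0.01, 0.02 and -0.01 over all measured genes. Of the 9 genes, 2 (22.2%) were higher in both assays, as were 105 (0.726%) of the genes measured in both. The 9 genes were chosen with earlier results of these data known, so these shares describe them and test no enrichment. A gene counts as measured in an assay where its mutant and sibling counts summed to 100 or more, and all 9 genes passed this in RNA and in footprints. In the sibling Ribo-seq library 5 of them had fewer than 100 counts by themselves (phlda3, bbc3, gadd45aa, baxa and ccng1).

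Ratios are those of CPM after TMM scaling, which centres each assay on its typical gene, with 0.5 counts added. FPKM and TPM levels are printed as deposited, without TMM scaling, so their quotients can differ from these ratios. The study reports lower nascent protein synthesis in the mutants, and a fall shared by most genes would not show in these ratios. Since each genotype has 1 library per assay, the differences have no replicate check and were not tested. The 95% intervals are exact conditional binomial for a ratio of 2 counts and Poisson-based for translation efficiency. They cover counting error only, and not the spread between fish or between library preparations. In heads taken whole, more RNA per cell and more cells that carry the RNA cannot be told apart.

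**Figure D1:**
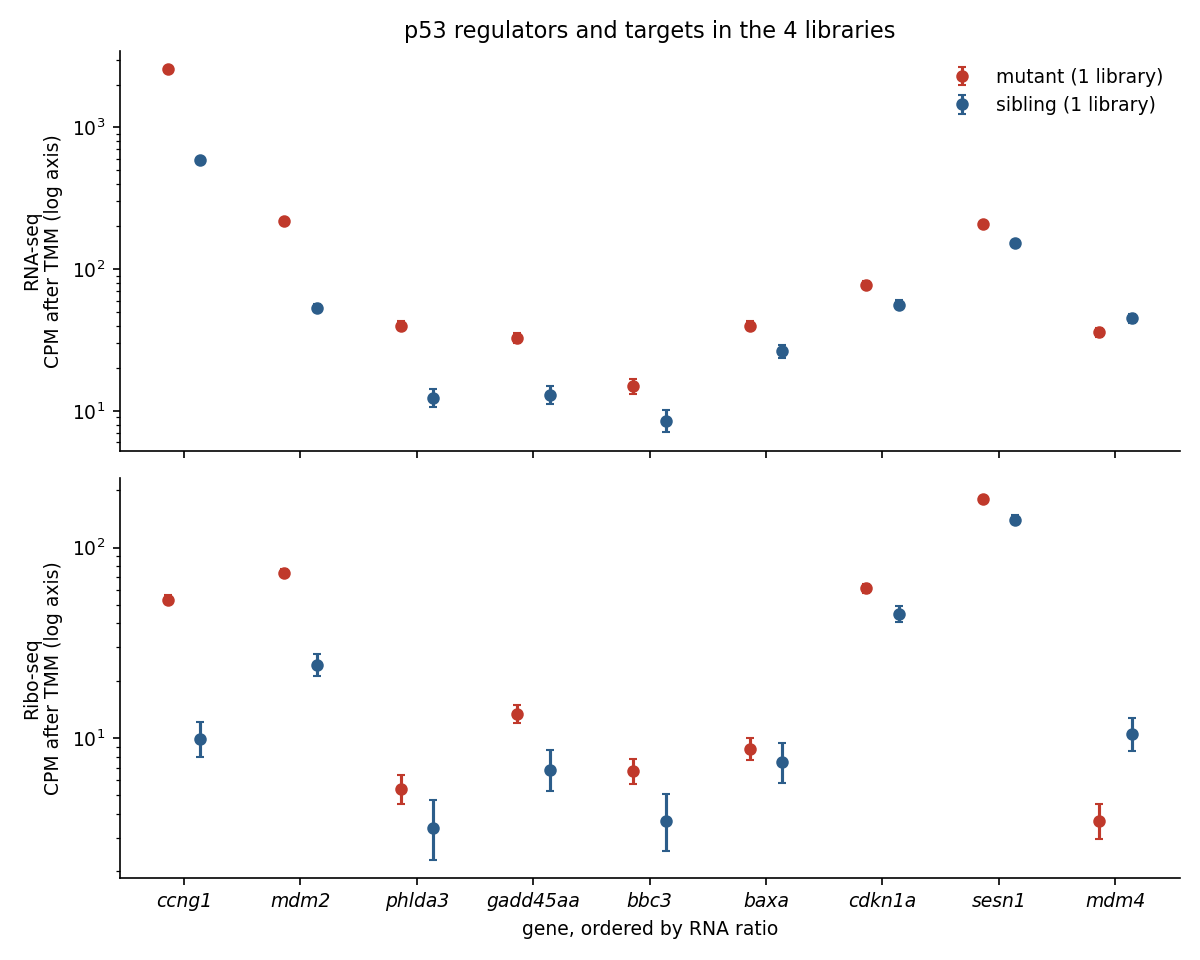
CPM after TMM scaling (log axis) of the 9 genes in RNA-seq (top) and Ribo-seq (bottom), mutant library in red to the left of the sibling library in blue, 1 library each, with exact Poisson 95% intervals. In RNA, 8 of the 9 genes lie higher in the mutant library, as do 51.0% of all measured genes, and ccng1 stands above the others in both genotypes. In footprints mdm4 lies lower in the mutant library, with 93 counts there and 100 in the smaller sibling library.

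The regulators of p53 parted from each other. mdm2 (ENSDARG00000033443), the ubiquitin ligase gene that is also a p53 target, had 3907 RNA counts in the mutant library and 778 in the sibling library. Per length this was 137.6 FPKM in mutant heads against 28.67 FPKM in sibling heads. After TMM scaling its RNA was 4.09-fold higher (95% counting interval 3.79 to 4.43), and 99.5% of measured genes had a lower ratio. mdm2 footprints numbered 1875 in the mutant library and 231 in the sibling library, or 69.8 against 12.0 TPM. From the TMM-scaled CPM they were 3.04-fold higher (2.65 to 3.50). On the log2 scale these ratios were 2.03 (1.92 to 2.15) in RNA and 1.60 (1.41 to 1.81) in footprints. The translation efficiency of mdm2 had a log2 ratio of -0.43 (-0.66 to -0.20) with TMM, short of the size rule, and 0.20 by total counts. Its footprint ratio was thus smaller than its RNA ratio with TMM alone of these 2 scalings. Among measured genes the footprint ratio stood at percentile 99.5, as the RNA ratio did.

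mdm4 (ENSDARG00000057513), which encodes the Mdm2 relative that inhibits p53, had lower footprints and slightly lower RNA. It had 641 RNA counts in the mutant library and 658 in the sibling library, with a log2 ratio of -0.33 (-0.49 to -0.17). Footprints numbered 93 in the mutant library and 100 in the sibling library, although the mutant library was the larger one, and their log2 ratio was -1.52 (-1.94 to -1.10). Only 1.64% of measured genes had a lower footprint ratio, while with total counts this ratio was -0.81 and short of the size rule. The mdm4 translation efficiency was lower too, at a log2 ratio of -1.19 (-1.62 to -0.75), which placed it at the percentile 2.01 of all genes. In translation efficiency itself, mdm4 stood at 0.102 in mutant heads and 0.233 in sibling heads.

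The ratio of one gene to another within a library needs no scaling between libraries. By this measure mdm2 RNA exceeded mdm4 RNA 12.0-fold in FPKM in mutant heads and 2.11-fold in sibling heads. From the counts, this quotient was 5.15-fold higher in the mutant library, a log2 difference of 2.37 (2.17 to 2.56). In footprints the quotient of mdm2 to mdm4 was 26.8 in TPM in mutant heads and 3.41 in sibling heads. From the counts it was 8.71-fold higher in the mutant library, a log2 difference of 3.12 (2.67 to 3.57). The balance between the ligase and its relative thus moved by more in footprints than in RNA, a statement that holds under any scaling of whole libraries.

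Among the targets linked to cell cycle arrest, ccng1 (ENSDARG00000076667), which encodes cyclin G1, had the highest RNA level of the 9 genes and the highest ratio in RNA and in footprints with TMM. It had 45786 RNA counts in the mutant library and 8561 in the sibling library, or 1356 against 293.7 FPKM. These levels placed it at rank 39 of 17243 measured genes in the mutant library and at rank 286 in the sibling library. From the TMM-scaled CPM the RNA was 4.36-fold higher (4.26 to 4.46), a log2 ratio of 2.13.
Its footprints were few for so abundant an RNA, with 1355 in the mutant library and 94 in the sibling library, or 62.1 against 5.43 TPM. After TMM scaling they were 5.38-fold higher (4.38 to 6.73), a log2 ratio of 2.43, above 99.9% of measured genes. ccng1 translation efficiency was 0.0209 in mutant heads and 0.0168 in sibling heads, beside medians over all genes of 0.735 and 0.736. Only 0.169% of genes in mutant heads and 0.038% in sibling heads had a lower value. The low footprint yield of ccng1 was therefore shared by the genotypes, and its log2 ratio of translation efficiency was 0.30 (-0.00 to 0.60). This quotient is not per length, and footprints fall on the coding part of a transcript while RNA reads fall on all of it.

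ccng1 and mdm2 had nearly the same RNA ratio, with a log2 difference of 0.09 (-0.02 to 0.21). In footprints ccng1 exceeded mdm2 by a log2 difference of 0.82 (0.46 to 1.18). Per length ccng1 footprints were 0.889 of those of mdm2 in mutant heads and 0.452 in sibling heads. Its RNA was 9.86 times that of mdm2 in mutant heads and 10.2 times in sibling heads. These 2 genes, whose RNA ratios differed by no more than counting error, thus differed in footprints by more than that.

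**Figure D2:**
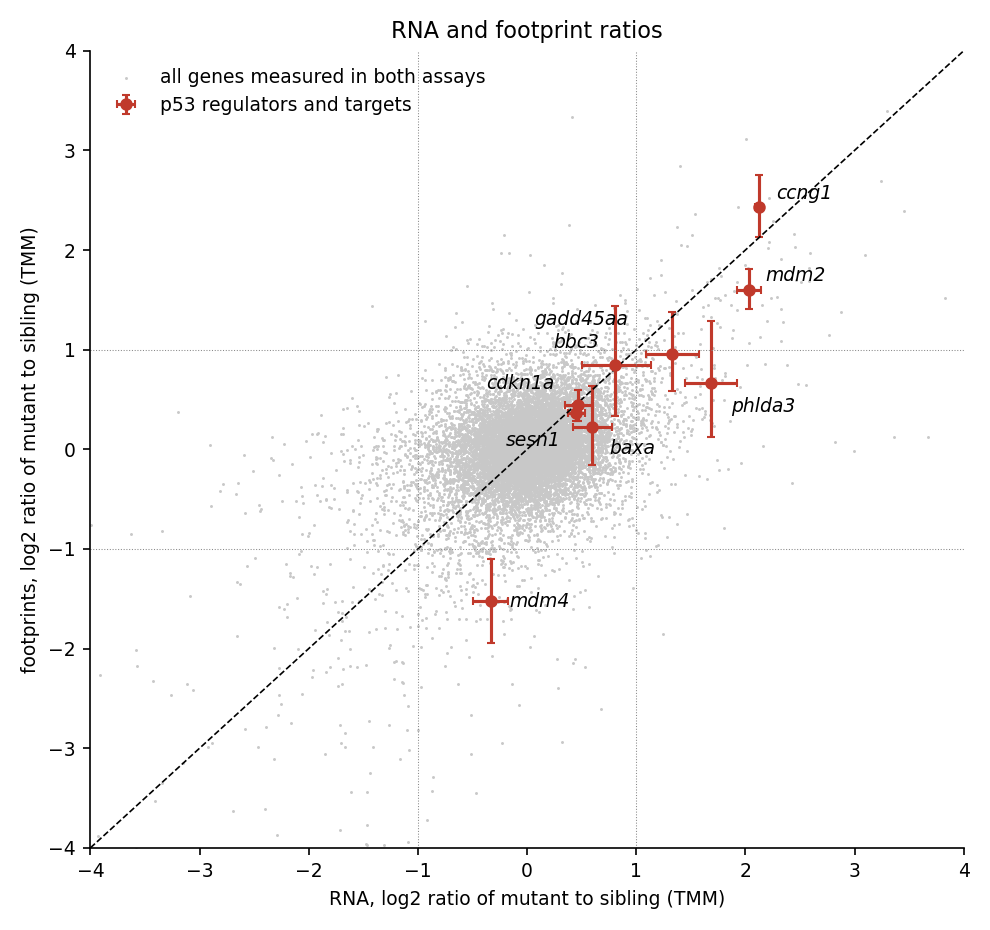
Log2 ratio of mutant to sibling in RNA (x axis) and in footprints (y axis), both after TMM scaling, for the 9 genes (red, with 95% counting intervals) and for all 14455 genes measured in both assays (grey, of which 60 lie outside the plotted range). The dashed line marks equal ratios and the dotted lines a ratio of 2. ccng1 and mdm2 lie beyond a ratio of 2 on both axes, phlda3 and gadd45aa on the RNA axis, and mdm4 lies below a ratio of 2 on the footprint axis.

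cdkn1a (ENSDARG00000076554) encodes p21, the inhibitor of cyclin-dependent kinases through which p53 halts the cell cycle. It had 1392 RNA counts in the mutant library and 820 in the sibling library, or 85.2 against 59.9 FPKM, with a log2 ratio of 0.47 (0.34 to 0.60). Footprints numbered 1551 in the mutant library and 428 in the sibling library, or 133.1 against 46.5 TPM, with a log2 ratio of 0.44 (0.29 to 0.60). The textbook target of the pathway was thus at 1.38-fold in RNA and 1.36-fold in footprints, short of the size rule. Its translation efficiency had a log2 ratio of -0.03 (-0.23 to 0.17). Within each library cdkn1a had the highest footprint level per length of the 9 genes. In RNA it was the third of the 9 genes in mutant heads and the second in sibling heads.

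gadd45aa (ENSDARG00000043581), a gene of the response to DNA damage and growth arrest, had 586 RNA counts in the mutant library and 190 in the sibling library. After TMM scaling the RNA was 2.51-fold higher (2.13 to 2.98), and the deposited levels were 26.9 FPKM in mutant heads and 10.1 FPKM in sibling heads. Footprints numbered 339 in the mutant library and 65 in the sibling library, and their ratio of 1.94 (1.50 to 2.59) lay just under the size rule. The interval of this ratio reaches past 2 but lies below those of ccng1 and mdm2. Its translation efficiency had a log2 ratio of -0.37 (-0.82 to 0.08).

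Among the targets linked to cell death, phlda3 (ENSDARG00000037804) stood first in RNA. In mammals it encodes a pleckstrin-homology protein that restrains Akt signalling. It had 713 RNA counts in the mutant library and 181 in the sibling library, or 27.6 against 8.10 FPKM. After TMM scaling its RNA was 3.21-fold higher (2.73 to 3.80). Footprints were scarce, with 137 in the mutant library and 32 in the sibling library, and a log2 ratio of 0.67 (0.12 to 1.29). The translation efficiency was lower, with a log2 ratio of -1.02 (-1.62 to -0.42) that is just past the size rule and whose interval includes values short of it. With TMM phlda3 was the one gene of the 9 that was higher in RNA and lower in translation efficiency.

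bbc3 (ENSDARG00000069282), which encodes the BH3-only protein Puma, had the lowest RNA level per length of the 9 genes. Its RNA counts were 267 in the mutant library and 124 in the sibling library, or 4.03 against 2.17 FPKM, with a log2 ratio of 0.81 (0.50 to 1.13). Footprints numbered 170 in the mutant library and 35 in the sibling library, with a log2 ratio of 0.85 (0.33 to 1.43). Its ratios stood at percentile 94.8 of measured genes in RNA and 97.1 in footprints, although neither reached 2. The translation efficiency had a log2 ratio of 0.04 (-0.57 to 0.64).
baxa (ENSDARG00000020623), which encodes the pore-forming Bax protein of the mitochondrial outer membrane, had 714 RNA counts in the mutant library and 385 in the sibling library. Its log2 ratio was 0.60 (0.42 to 0.78) in RNA. Footprints numbered 222 in the mutant library and 71 in the sibling library, with a log2 ratio of 0.22 (-0.16 to 0.64). With TMM this interval includes 0, whereas the ratio was 0.94 by total counts and 1.19, past the size rule, by the deposited values. A second gene ID carries the symbol baxa, with 6 and 6 counts in the mutant RNA-seq and Ribo-seq libraries and 4 and 0 in the sibling libraries, and was not used.

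sesn1 (ENSDARG00000020693) is a stress gene whose product restrains TORC1 signalling. It had 3736 RNA counts in the mutant library and 2231 in the sibling library, with a log2 ratio of 0.45 (0.37 to 0.53). Footprints numbered 4587 in the mutant library and 1331 in the sibling library, or 127.6 against 46.1 TPM, with a log2 ratio of 0.37 (0.28 to 0.46). The sesn1 translation efficiency was 0.866 in mutant heads and 0.915 in sibling heads, the highest of the 9 genes in each genotype. In the RefSeq annotation sesn1 shares its interval with armc2 and si:ch211-51a19.5, and its counts are not whole numbers, so part of them may belong to a neighbour. The other 8 genes overlap 0 annotated genes.

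Ordered by RNA ratio, the genes ran ccng1, mdm2, phlda3, gadd45aa, bbc3, baxa, cdkn1a, sesn1 and mdm4. The intervals of each neighbouring pair in this order overlapped, except those of sesn1 and mdm4. In footprints the order was ccng1, mdm2, gadd45aa, bbc3, phlda3, cdkn1a, sesn1, baxa and mdm4. There the intervals of ccng1 and mdm2, of mdm2 and gadd45aa, and of baxa and mdm4 did not overlap, and those of the other neighbours did. phlda3 took the third place in RNA and the fifth in footprints. The levels spread more widely in mutant heads, where the highest RNA level (ccng1) was 336 times the lowest (bbc3) in FPKM, against 135 times in sibling heads.

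Of the effector genes, 3 pairs with neighbouring roles or ratios are set side by side here, while other pairs, such as ccng1 and cdkn1a or phlda3 and baxa, had RNA intervals that did not overlap. The log2 difference between the ratios of cdkn1a and baxa, one gene of arrest and one of death, was -0.13 (-0.34 to 0.09) in RNA and 0.22 (-0.20 to 0.63) in footprints. cdkn1a lay below bbc3 by -0.34 (-0.67 to -0.01) in RNA and -0.41 (-0.95 to 0.14) in footprints. gadd45aa lay below phlda3 by -0.35 (-0.69 to -0.02) in RNA, and in footprints the difference was 0.29 (-0.38 to 0.96). None of the intervals of these 3 pairs reaches a log2 difference of 1 in either direction.

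**Figure D3:**
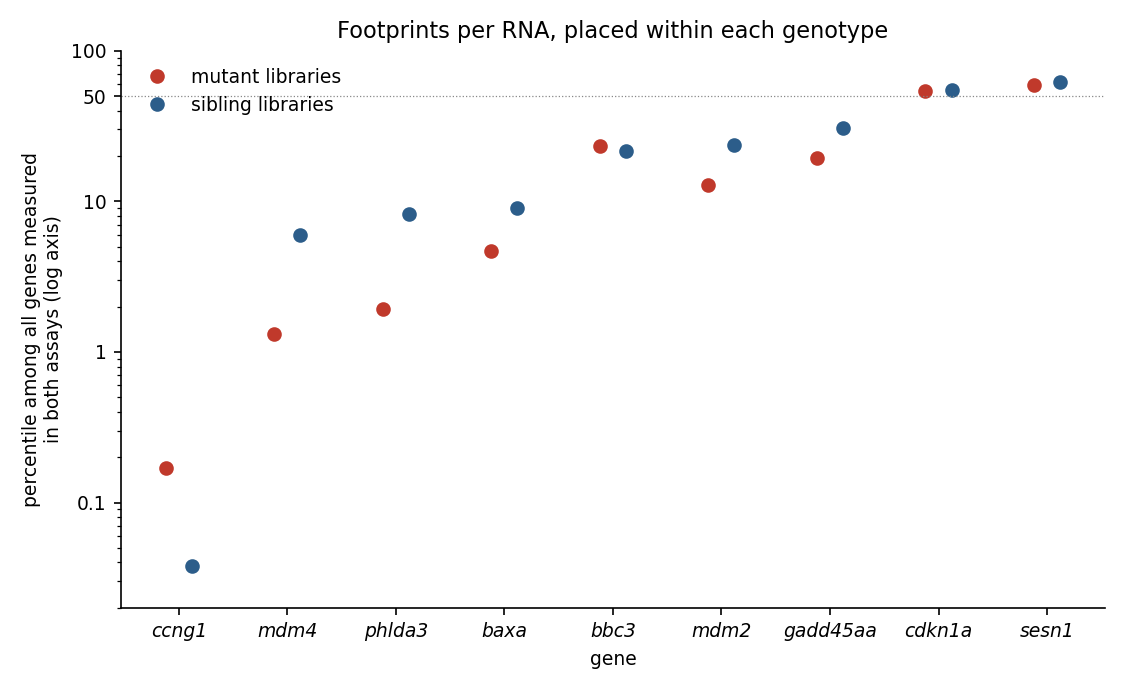
Percentile of footprints per RNA (log axis) of each of the 9 genes among the 14455 genes measured in both assays, mutant libraries in red to the left of sibling libraries in blue. The dotted line marks the median gene. ccng1 lies under the first percentile in both genotypes, cdkn1a and sesn1 lie above the median, and mdm4, phlda3, baxa, mdm2 and gadd45aa lie lower in mutant heads than in sibling heads.

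In the rank of footprints per RNA within a genotype, which no scaling of libraries can alter, 7 of the 9 genes lay under the median gene in both genotypes. mdm4 was at percentile 1.31 in mutant heads and 5.97 in sibling heads, and phlda3 at 1.93 in mutant heads and 8.19 in sibling heads. mdm2 was at percentile 12.8 in mutant heads and 23.8 in sibling heads, gadd45aa at 19.3 in mutant heads and 30.7 in sibling heads, and baxa at 4.69 in mutant heads and 9.02 in sibling heads. The places in mutant and sibling heads lay closer together for cdkn1a (53.7 in mutants, 55.0 in siblings), sesn1 (59.3 in mutants, 62.4 in siblings) and bbc3 (23.3 in mutants, 21.8 in siblings). These placements are descriptive, since the counting error of the scarce footprints of mdm4, phlda3 and bbc3 is large.

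Scaling bears on the footprint values more than on the RNA values. In the Ribo-seq libraries 3 abundant loci (zgc:158463, BX537263.3 and AL935186.10) held 18.1% of the counts in the mutant library and 49.1% in the sibling library. Scaling by total counts therefore raised the footprint ratio of every gene by a log2 value of 0.71 over TMM, and the median of all genes to 0.74. With total counts 7 of the 9 genes were higher in footprints and 0 lower, in a table where 22.1% of all measured genes were higher. With the deposited FPKM and TPM, 1 added to each, 8 were higher and 0 lower, where 44.6% of all genes were higher. With total counts after those 3 loci were left out, 2 were higher and 1 lower, as with TMM.
The RNA call of each of the 9 genes was the same under all of these, with 4 higher and 0 lower.

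mdm2 footprints had a log2 ratio of 1.60 after TMM, 2.32 by total counts and 2.44 by the deposited values. For ccng1 it was 2.43, 3.14 and 3.29 in the same order, and for cdkn1a 0.44, 1.15 and 1.50. The footprint ratio of mdm4 was below 0 under each scaling, at -1.52 (TMM), -0.81 (total counts) and -0.33 (deposited values). TMM and total counts differ by 1 constant for all genes, so a value set against the median of all genes is the same with both by construction. Such relative values were 1.58 for mdm2 with TMM and 1.49 from the deposited values. For mdm4 they were -1.54 with TMM and -1.28 from the deposited values, and for ccng1 2.40 and 2.34.
In translation efficiency the sign of mdm2, cdkn1a, gadd45aa, sesn1 and baxa was negative with TMM and positive with total counts and with the deposited values. That of mdm4 was negative throughout, at -1.19, -0.56 and -0.10, as was that of phlda3, at -1.02, -0.38 and -0.10. That of ccng1 was positive throughout, at 0.30, 0.93 and 1.09. For bbc3 it was 0.04 with TMM and just under 0 when the 3 loci were left out.

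**Figure D4:**
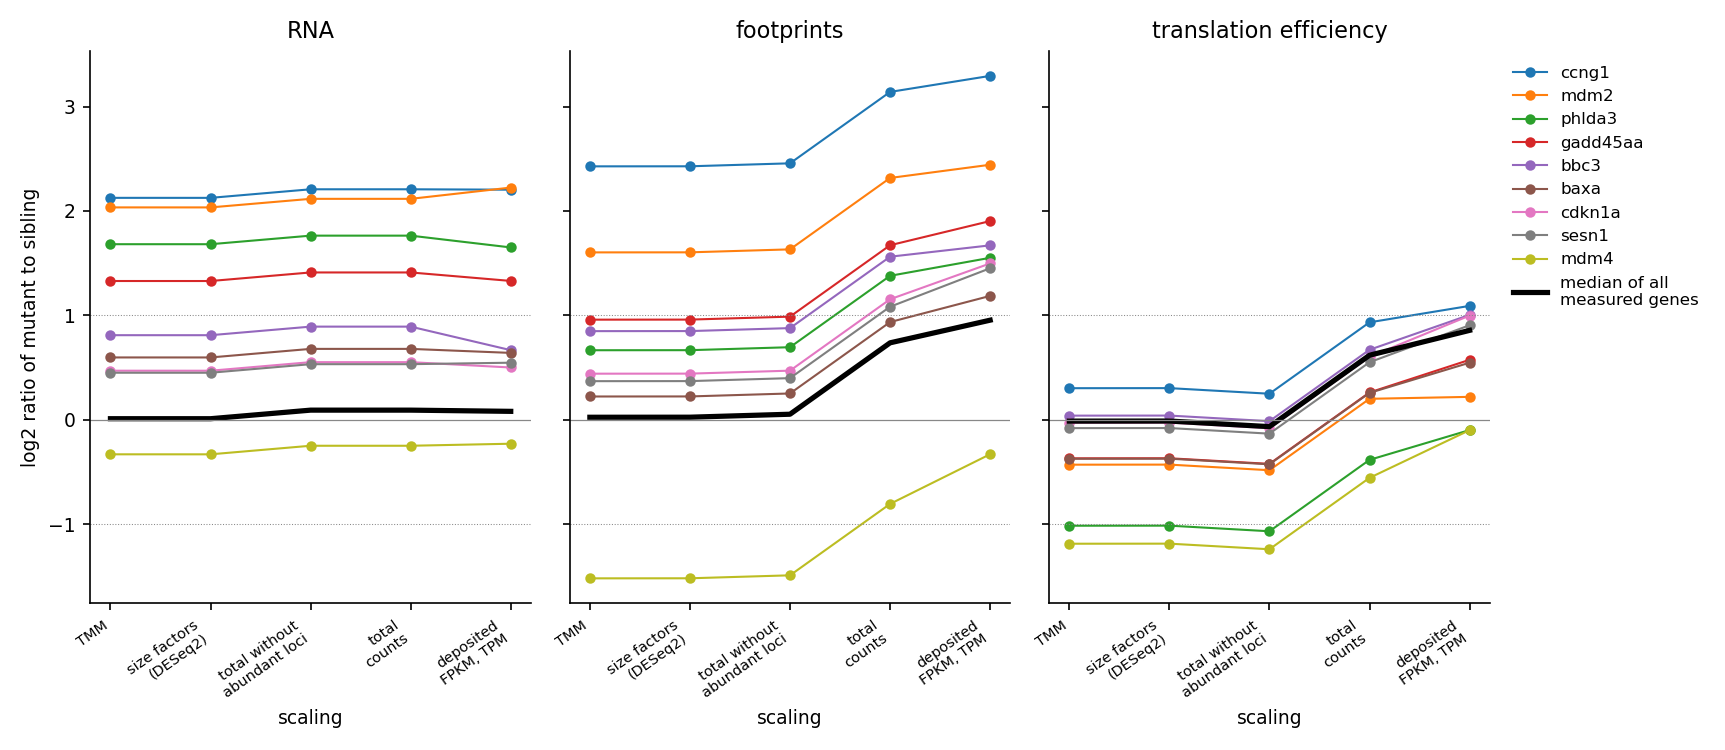
Log2 ratio of mutant to sibling (y axis) of the 9 genes in RNA, footprints and translation efficiency under 5 scalings (x axis), with the median of all measured genes as a thick black line and ratios of 2 as dotted lines. Footprint and translation efficiency values move up with the black line under total counts and the deposited values, while the order of the genes in footprints is kept and mdm4 stays below 0.

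Wider lists of pathway genes, each with members beyond the 9, are described next with TMM scaling. Their counts past the size rule are set beside the share of all measured genes and test no enrichment. Of 24 measured regulators of p53 stability and activity, 1 was higher in RNA (mdm2) and 0 were lower. Among all measured genes 3.14% were higher in RNA and 6.16% lower, and the median log2 ratio of the regulators was 0.06. In footprints 1 of 24 was higher and 2 were lower, mdm4 and chek1, a checkpoint kinase gene with a log2 ratio of -1.24 (-1.79 to -0.68). The shares of all measured genes in footprints were 1.90% higher and 3.61% lower. The chek1 footprint ratio was -0.53 with total counts. The nucleolar protein genes ncl and npm1a had log2 RNA ratios of 0.33 and 0.57 and footprint ratios of -0.04 and 0.17, and the deacetylase gene hdac1 had -0.01 and 0.01. cdkn2a/b, a cell cycle inhibitor gene of this list, was under the minimum in RNA. It is named because of its counts alone, so its fold does not describe the list. The RNA counts were 14 in the mutant library and 0 in the sibling library. Against a floor of 3 counts in the sibling library this was 3.81-fold higher, while the 95% counting interval of the ratio starts at 2.71. Its footprints, 85 in the mutant library and 10 in the sibling library, were also under the minimum.

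Of 15 measured arrest targets, 2 were higher in RNA and 0 lower (median 0.46), the 2 being ccng1 and gadd45aa. Among all measured genes 3.14% were higher in RNA and 6.16% lower. In footprints 1 was higher (ccng1) and 2 were lower, the repressor genes e2f7 at -1.01 and e2f8 at -1.70, with a median of 0.04. The shares of all measured genes there were 1.90% higher and 3.61% lower. With total counts neither e2f7 (-0.30) nor e2f8 (-0.99) reached the size rule. btg2, an antiproliferative target, had a log2 ratio of 0.57 in RNA and -0.22 in footprints. The kinase gene plk3 had 0.46 and 0.35.

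Of 17 measured apoptosis targets, 2 were higher in RNA and 0 lower (phlda3 and casp8), with a median of -0.03. Among all measured genes 3.14% were higher in RNA and 6.16% lower. In footprints 1 of 17 was higher, where 1.90% of all measured genes were, namely casp8, an initiator caspase gene. It had 438 RNA counts in the mutant library and 169 in the sibling library, with a log2 ratio of 1.08 (0.82 to 1.34). casp8 footprints numbered 508 in the mutant library and 76 in the sibling library, with a log2 ratio of 1.32 (0.98 to 1.69). The death receptor gene tnfrsf1a had 0.75 in RNA and 0.74 in footprints, while perp, a membrane protein gene, had -0.03 and 0.14, and aifm2 had -0.36 and -0.01. In RNA the median of this list lay at the level of all genes. The RNA ratios of phlda3, bbc3 and baxa were thus not those of the list at large. In footprints the list median was 0.20, beside 0.02 over all measured genes, and 13 of the 17 genes were above 0. There baxa, at 0.22, lay close to the list median. phlda3 (0.67) and bbc3 (0.85) lay above it, although the interval of phlda3 (0.12 to 1.29) includes the list median.

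Of 19 measured targets of repair, metabolism and stress, 3 were higher in RNA and 3 lower (median -0.04). Among all measured genes 3.14% were higher in RNA and 6.16% lower. The 3 higher genes were rps27l, isg15 and sesn2. rps27l, a ribosomal protein-like target, had 821 RNA counts in the mutant library and 175 in the sibling library, and a log2 ratio of 1.93 (1.70 to 2.18). Its footprints numbered 1642 in the mutant library and 114 in the sibling library, with a log2 ratio of 2.43 (2.16 to 2.72), close to that of ccng1. It is related in sequence to rps27.1, and reads of the pair may have been shared. isg15, a ubiquitin-like gene of the interferon response, had log2 ratios of 2.21 (1.71 to 2.78) for RNA and 2.52 (1.71 to 3.61) for footprints. sesn2, the relative of sesn1, had a log2 RNA ratio of 1.29 (0.90 to 1.71) and a footprint ratio of 0.21 (-0.26 to 0.73), and its translation efficiency was lower at -1.08 (-1.70 to -0.47) with TMM and -0.45 by total counts.
The 3 lower in RNA were ddb2, a DNA damage recognition gene, at -1.03, rrm2 at -1.14, and gls2a, a glutaminase gene, at -1.39. rrm2 is a subunit gene of ribonucleotide reductase, and rrm1, of the same enzyme, stands in the list of repressed cell cycle genes below. rrm2 is counted here as listed, and whether its values are those of a gene that p53 switches on was not tested. In footprints 2 of 18 were higher, rps27l and isg15, where 1.90% of all measured genes were higher. There 2 of 18 were lower, rrm2 at -2.15 (-2.31 to -1.99) and gls2a at -1.50 (-2.06 to -0.93), where 3.61% of all measured genes were lower. ddb2 had a footprint ratio of 0.06 and a higher translation efficiency at 1.09 (0.81 to 1.38). The footprint call of gls2a was lost by total counts, at -0.79, and by the deposited values, at -0.25. In RNA ddb2 was short of the size rule by total counts, at -0.95, and by the deposited values, at -0.88, where gls2a was at -0.98. The replication clamp gene pcna had -0.94 and -0.90, and foxo3b, a forkhead factor gene, 0.43 and 0.28.

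Of 10 measured genes of ribosomal proteins that bind Mdm2 and of 5S RNP assembly factors, 0 were higher or lower in RNA (median -0.20). Among all measured genes 3.14% were higher in RNA and 6.16% lower. In footprints 3 were higher and 0 lower (median 0.85), where 1.90% of all measured genes were higher. In translation efficiency 6 were higher and 0 lower (median 1.12), where 3.55% of all measured genes were higher. rpl11, whose product binds Mdm2 as part of the 5S RNP, had a log2 ratio of -0.17 (-0.20 to -0.13) in RNA and 1.37 (1.30 to 1.43) in footprints. rps7 had 1.18 and rps27.1 had 1.07 in footprints. By total counts 8 of the 10 were higher in footprints, where 22.1% of all measured genes were higher. By the deposited values 10 were higher, where 44.6% of all measured genes were. In translation efficiency the higher genes were rpl11 at 1.53, rpl5b at 1.36, rps7 at 1.54, rps27.1 at 1.61, rps3 at 1.15 and rpl23 at 1.09, and the assembly factor gene rpf2 had -0.58. rpl5a, rpl5b and rps27.1 have near-identical copies, so their reads may be split between genes. The 9 p53 genes and this list thus had medians of translation efficiency on opposite sides of the median of all genes, -0.37 against 1.12.

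Of 17 measured cell cycle genes that p21 and the DREAM complex are known to repress, 0 were higher and 1 was lower in RNA. This was the cyclin gene ccne2 at -1.07 (list median -0.61), where 6.16% of all measured genes were lower. By total counts ccne2 RNA had -0.99 and by the deposited values -0.88, which left 0 lower. With TMM 4 of the 17 were above 0 in RNA, among them plk1 at 0.18, aurka at 0.24 and cdc20 at 0.19. In footprints 0 were higher and 8 of 16 were lower (median -1.02), where 3.61% of all measured genes were lower. The 8 were ccne2 at -1.78, top2a at -1.53, ccna2 at -1.45, cdk1 at -1.44, mki67 at -1.24, rrm1 at -1.24, ccnb1 at -1.15 and aurkb at -1.07. Of the list genes short of the size rule, those with most counts were mcm5, cdc20 and cdc25b. mcm5 had -0.97 in RNA and -0.98 in footprints, cdc20 0.19 and -0.17, and cdc25b -0.05 and -0.77. In translation efficiency 2 of 16 were lower, the mitotic kinase genes plk1 at -1.13 and aurka at -1.06, where 3.18% of all measured genes were lower. By total counts plk1 had -0.50 and aurka -0.43, and by the deposited values -0.13 and -0.04, so 0 were lower. By total counts 1 of the 16 was lower in footprints, and by the deposited values 0, where 1.27% and 0.782% of all measured genes were lower. The footprint median of this list was -0.31 with total counts, where all genes had 0.74, and 0.01 from the deposited values, where all genes had 0.95. The list thus lay below the median of all genes under each of these scalings, while its own sign changed under the last. The study reports decreased cell proliferation in the midbrain and pharyngeal arches of the mutants. What part p21 or the number of dividing cells has in these values was not tested.

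**Figure D5:**
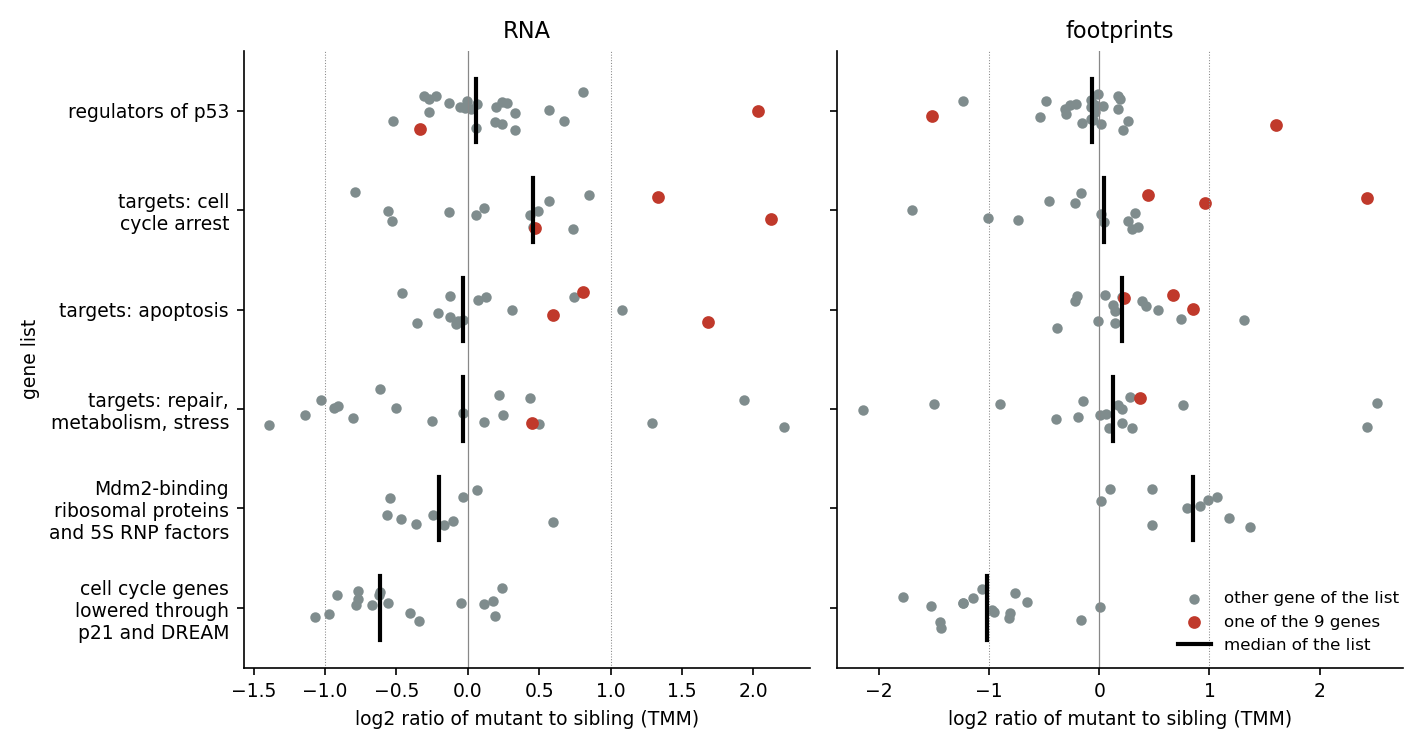
Log2 ratio of mutant to sibling after TMM scaling (x axis) in RNA (left) and footprints (right) for 6 lists of p53 pathway genes (y axis). Red points are genes of the 9, grey points are other genes of the list, black bars are list medians and dotted lines mark a ratio of 2. ccng1 and mdm2 stand far to the right of their list medians, and the footprint medians of the last lists lie at 0.85 and -1.02.

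The measured genes nearest to mdm2 in both ratios together, of 12933 candidates, were prl, cbx7a, fn1b, slc16a9a and gcga. Clone names, and symbols that end in a dot and a number, were left out of the candidates. These neighbours lay at log2 distances of 0.11, 0.14, 0.19, 0.22 and 0.22 over RNA and footprints, and none of the 9 was among them. In the sibling libraries prl had 31 RNA counts and 38 footprints, and gcga had 16 footprints, so counting error bears on this order. prl, the prolactin gene, had 1.92 in RNA and 1.60 in footprints. cbx7a, a Polycomb gene, had 1.90 and 1.59, and fn1b, a fibronectin gene, had 2.15 and 1.45.

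noc4l had 45 RNA counts in the mutant library and 443 in the sibling library, and 15 footprints in the mutant library against 93 in the sibling library. The mutant libraries held 17395024 RNA-seq and 19823848 Ribo-seq counts, and the sibling libraries 15018488 and 12181046. Markers of liver, exocrine pancreas and intestine were present in the head libraries and lower in the mutant ones. In RNA their summed CPM was 2411, 227 and 780 in mutant heads, against 7976, 4144 and 3587 in sibling heads, with 14 of 15 markers lower. RNA of neuron markers summed to 1299 CPM in mutant heads and 1336 CPM in sibling heads. Of the neuron markers 0 of 5 were past a ratio of 2 in RNA or footprints. RNA of cartilage markers summed to 2537 CPM in mutant heads and 1645 CPM in sibling heads. Of these, 2 of 5 were higher in RNA and 1 of 5 in footprints. RNA of photoreceptor markers summed to 1942 CPM in mutant heads and 2452 CPM in sibling heads. Their footprints summed to 2110 and 1976 CPM in the same order, with 0 of 5 past a ratio of 2 in either assay. Footprints of lens markers summed to 1108 CPM in mutant heads and 2600 CPM in sibling heads, with 3 of 4 lower. Their RNA summed to 1335 CPM in mutant heads and 1690 CPM in sibling heads, with 1 of 4 lower. RNA of skeletal muscle markers summed to 27284 CPM in mutant heads and 20010 CPM in sibling heads, with 1 of 5 higher. Footprints of these muscle markers went the other way, with 2820 CPM in mutant heads and 4281 CPM in sibling heads and 0 of 5 past a ratio of 2. Of the markers, 1 intestine marker was at 0 in each Ribo-seq library. The part that these cell types have in the ratios of the p53 genes was not tested.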

How the data were processed

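Per the submitters' processing notes, reads were aligned with HISAT2 and counted with featureCounts. Their versions, the genome build, the annotation and any strand setting were not given in the sources used here. For each gene the authors deposited estimated counts (expected counts, not all whole), FPKM for RNA-seq and TPM for Ribo-seq. The labels give the same poly(A) protocol for Ribo-seq as for RNA-seq, whereas the study's methods give RNase digestion followed by ultracentrifugation on sucrose. Columns of the authors' own comparison (a log2 fold change and p-values), and the deposited mean columns (a score, the FPKM or TPM with a small lower bound), were not used.

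Here 1 row without a gene ID (0.000746% of mutant and 0.00303% of sibling Ribo-seq counts) was left out, and TMM factors came from edgeR 4.0.16 in R 4.3.3. A count minimum of 100, a size rule of 2-fold and 0.5 added counts were used. A floor of 3 counts in place of a count of 0 was used for the printed fold of cdkn2a/b alone. Other scalings were total counts, DESeq2 1.42.0 size factors, totals without loci above 5% of a Ribo-seq library, and the deposited FPKM and TPM with 1 added. Further alternatives were 2 added counts and a minimum of 10. Ratios and intervals were computed in Python 3.11.15 (numpy 2.4.6, pandas 2.3.3, scipy 1.17.1), drawn in matplotlib 3.10.9 and tested on simulated data. Named genes are the 9 members, noc4l, list genes past the size rule, up to 3 others of each list by counts, and the 5 nearest to mdm2. Outside this rule cdkn2a/b is named because of its counts. Members and lists were chosen with earlier results of these data known. Counts per library set the precision, and fewer than 50 sibling footprints lie behind phlda3 and bbc3.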

Additional observations from a re-analysis of the deposited data

How the results depend on the processing

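The count of the 9 genes past a ratio of 2 depended on the scaling in Ribo-seq and not in RNA-seq, where 4 were higher and 0 lower under each alternative. In footprints 2 were higher and 1 lower with TMM. With total counts these were 7 and 0, where 22.1% of all measured genes were higher. With the deposited FPKM and TPM they were 8 and 0, where 44.6% were higher. In translation efficiency 0 were higher and 2 lower with TMM. With total counts 0 were lower, and with the deposited values 2 were higher (ccng1 and bbc3) and 0 lower, where 36.4% of all measured genes were higher. DESeq2 size factors, totals without the 3 abundant loci, 2 added counts and a minimum of 10 counts left all of these counts as with TMM. Of 135 single log2 ratios under alternatives, 92 moved by less than their counting interval allows, 43 moved by more and 0 of the values past the size rule changed sign. With a minimum of 10 counts, 10 of 27 percentiles moved by more than their interval. Beside this, 3 loci held 18.1% of the mutant and 49.1% of the sibling footprints, and which scaling fits the cells best was not tested. No paired analysis was possible because each group holds 1 library, and for the same reason no library could be left out. Depth limits phlda3 and bbc3 most, with 32 and 35 sibling footprints.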
